A study of Oryctolagus cuniculus with 16 samples.

Results

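In vein grafts of rabbits, 45 genes had a low signal on day 1 after surgery and a signal near that of the sham surgery group on day 7. They were chosen from the authors' normalized log2 values of genes with a symbol, with 1 probe per gene (the brightest). The rule took genes with a day 1 minus sham difference of -1.5 or less and a day 7 minus sham difference between -0.75 and 0.75. The 45 genes made up 4.13% of the 1090 genes with a symbol and 22.3% of the 202 genes that met the day 1 threshold. A further 6 genes met both thresholds and were left out by name (ACTA2, MMP2, SLC6A8, SLC4A3, SLC25A4 and TFPI), since the rule omits ion channels, carriers, drug-metabolizing enzymes, matrix metalloproteinases and some vessel wall markers. Of the other genes that met the day 1 threshold, 135 were still lower on day 7 and 16 were above the sham group. Because differences from sham on both days chose the genes, those differences, and the difference between the days, are given as a description without a test.

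Vein tissue of male rabbits was removed on day 1 (6 arrays) or day 7 (6 arrays) after vein graft surgery, or from a sham surgery group (4 arrays), and its total RNA was hybridized with Cy3 dye to Agilent rabbit arrays. The labels give no strain, age or animal for an array, so that p-values measure the spread between these samples only, which may be technical. The 6 arrays of each graft group fell into 2 sets of 3 arrays that differed by less than the spread between spots of the same probe, and each set was averaged and counted as 1 sample, which left 2 samples on day 1, 2 on day 7 and 4 sham samples. By the file headers each set held 1 array position on 3 scans (positions 1 and 2 on day 1, 3 and 4 on day 7). Sample and position therefore cannot be told apart within a graft group. All graft arrays lay on scans that held no sham array, so that scan and surgery cannot be told apart. Background was clearly exceeded by 32973 to 36319 probes on an array, and the number of samples limits the precision of every value. All levels below are quantile-normalized log2 signals of the same probes, which can be compared between samples for 1 gene and not between genes.

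A vein wall consists of an endothelial lining, smooth muscle cells and fibroblasts embedded in collagen and proteoglycans. A vein placed into an artery meets arterial pressure, loses part of its resident cells early, takes up inflammatory cells from the blood, and later forms a neointima in which smooth muscle cells and fibroblasts divide and lay down matrix. In a bulk sample of such tissue, fewer cells of a type and less RNA per cell cannot be told apart.

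Of the 45 genes, 8 were not well above background on any day 1 array, so that their day 1 minus sham difference is only a bound. The other 37 had day 1 minus sham differences between -5.00 (BGN) and -1.52 (MCM9), with a median of -2.33. The difference was -2 or less in 25 of the 37 genes, -3 or less in 10 and -4 or less in 3 (BGN, C1S and IGF1). Over all 45 genes the median was -2.43 with the measured signals and -2.22 with the 8 genes at their bound. On day 7 they lay between -0.71 (CST3) and 0.67 (YIPF1) from the sham mean, with a median of -0.31. Both day 1 samples were below all 4 sham samples in 45 of 45 genes, which the day 1 threshold of the rule made likely. The narrowest gap between the groups was 0.60 (PSAT1). The day 7 samples did not return to the same place in every gene. Both were inside the range of the sham samples in 8 genes, below it in 17, above it in 5, and partly inside it in 15. The shares of all genes with such a separation or place were not computed, so that nothing is read from these counts. In the limma model of all genes, 44 of the 45 were called lower on day 1 (adjusted p below 0.05 and a log2 fold change of at least 1 in size), where 21.1% of 18141 genes were called lower and 29% higher. The exception was PSAT1. On day 7 against sham, where 12.5% of 18120 genes were called lower and 17.8% higher, the rule itself kept the members below the fold threshold. Between the days, 42 of the 45 were called higher on day 7 than on day 1, where 19.2% of 18120 genes were called higher and 22% lower. The exceptions were PSAT1, TNNC1 and FBXO7. Since the rule used these contrasts, nothing is read from the member counts.

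**Figure D1:**
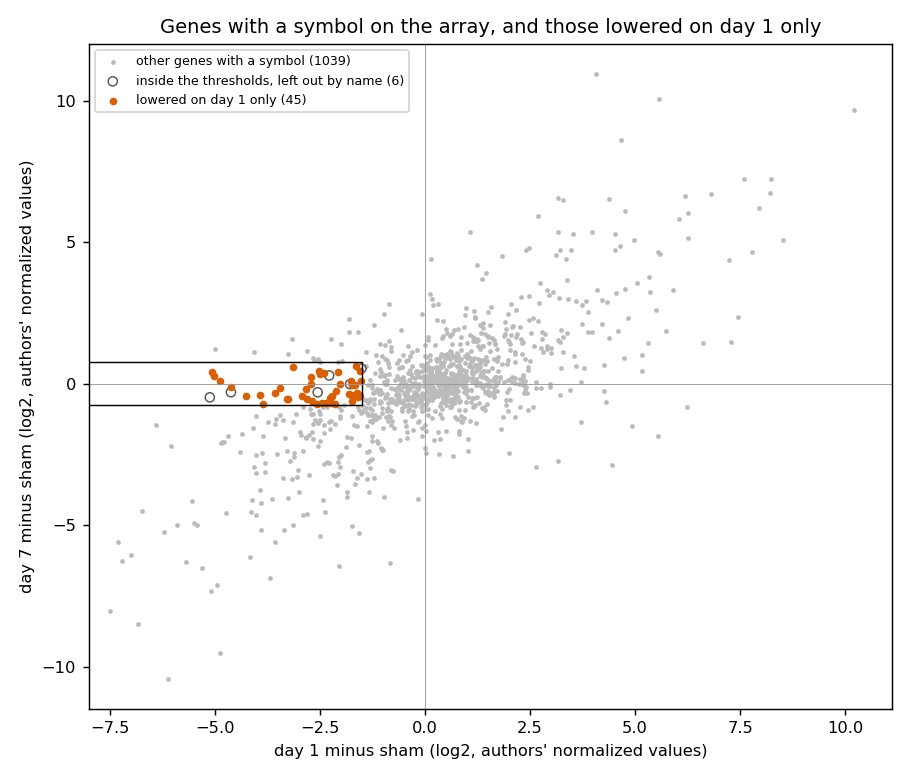
Each point is a gene with a symbol, placed by its day 1 minus sham difference (x axis) and its day 7 minus sham difference (y axis) in the authors' normalized log2 values. The 45 genes (orange) fill the box that the thresholds of -1.5, -0.75 and 0.75 mark, and open circles are the 6 genes left out by name.

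The median of all genes tested was itself 0.29 above sham on day 1 and 0.08 above it on day 7 on the log2 scale. Relative to all genes, the median of the 45 genes was therefore -2.72 on day 1 (-2.51 with the 8 dim genes at their bound). With signals scaled to the 75th percentile, the median of all genes was 0.70 on day 1, and the 45 genes had a median of -1.90, which is -2.60 relative to all genes. With normexp background correction the median of the 45 genes was -1.46, which is -1.58 relative to all genes. Scaling to the 75th percentile raised the share of higher genes among those called on day 1 from 57.9% to 70.8%. It lowered the share called higher among those called between the days from 46.6% to 27.1%. Close to the thresholds, MCM9 (-1.53) and NFS1 (-1.54) were just inside on day 1 in the authors' values, and GYG1 (-1.42) and RFT-II (-1.40) were just outside. On day 7, TPM1 and FTO (both -0.71) and, on the high side, SGCB (0.61) and YIPF1 (0.62) were just inside, whereas CFAP95 (-0.76), PRKCA (-0.81), GPSM2 (0.78) and HNRNPK (0.80) were just outside.

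The extracellular matrix was represented by 6 genes, namely the collagen chain COL1A2, the small proteoglycans BGN and LUM, the calcification inhibitor MGP, the cell surface proteoglycan GPC6 and the secreted protease inhibitor CST3. Their median day 1 minus sham difference was -2.996 with GPC6 at its bound, and their median day 7 minus sham difference was -0.08 on the log2 scale. BGN, which binds collagen and growth factors, had log2 signals of 4.75 and 4.61 on day 1, 9.97 and 10.01 on day 7, and 10.48, 10.52, 8.84 and 8.88 in sham samples 1 to 4. Its day 1 level was 31.9-fold below the sham mean, and its day 7 samples lay between the sham pairs. COL1A2, a chain of the type I collagen that gives the wall its tensile strength, had log2 signals of 16.29 and 16.33 on day 1, 18.91 and 19.13 on day 7, and 19.04, 18.95, 19.03 and 19.07 in sham samples 1 to 4. The day 7 and sham samples overlapped, and both day 1 samples were 6.57-fold below the sham mean on average.

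LUM, a proteoglycan that spaces collagen fibrils, had log2 signals of 14.35 and 14.40 on day 1, 17.88 and 17.53 on day 7, and 17.72, 17.90, 17.94 and 17.92 in sham samples 1 to 4. Its sham samples were within 0.22 of each other, and the day 1 level was 11.3-fold lower. MGP, which keeps calcium from being deposited in the vessel wall, had log2 signals of 15.88 and 15.90 on day 1, 18.56 and 18.71 on day 7, and 19.16, 19.18, 19.14 and 19.19 in sham samples 1 to 4. Both day 7 samples remained below all 4 sham samples, at a mean difference of -0.53. CST3, an inhibitor of cysteine cathepsins, had a day 1 minus sham difference of -2.59 and the lowest day 7 minus sham difference of the 45 genes (-0.71). GPC6 was well above background on every sham and day 7 array and on none of day 1, so that its day 1 level is only a bound (sham at least 3.02-fold higher). Such bounds set the sham mean against the lowest signal that counted as well above background on the day 1 arrays. Where the signal of the gene itself was higher, that signal was used. They hold for the quantile-normalized signals only, as the GPC6 difference was -0.47 with normexp background correction, which is smaller than its bound.

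Of the 10 other matrix genes on the list with a symbol, 4 were called lower on day 1 and 3 higher, with 3 not called. COL5A2, a chain of the fibrillar type V collagen, was lower on day 1 (log2 fold change -3.18 ± 0.15 (SE), limma adjusted p = 1.7e-06) and higher than sham on day 7 (1.58 ± 0.15, adjusted p = 0.0001). THBS1, a matricellular glycoprotein, was lower on both days (-2.69 on day 1 and -1.89 on day 7). The metalloproteinase inhibitors did not share a direction on day 1, as TIMP1 was higher by 2.94 and TIMP4 lower, with a log2 fold change of -5.67. On day 7, 5 of the 10 genes were called higher and 3 lower.

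Secreted and cell surface proteins made up 7 of the 45 genes, with a median day 1 minus sham difference of -3.57. APOE, the apolipoprotein that carries cholesterol and is taken up by lipoprotein receptors, had log2 signals of 2.51 and 2.36 on day 1, 8.12 and 7.91 on day 7, and 7.04, 7.28, 8.16 and 7.83 in sham samples 1 to 4. It was well above background on all sham and day 7 arrays and on no day 1 array. In the quantile-normalized signals the sham level was at least 15.5-fold the day 1 level. Under other settings (listed below) the day 1 minus sham difference of APOE was as small as -1.64 on the log2 scale, which is less than this bound. C1S, a serine protease of the classical complement pathway, had log2 signals of 11.23 and 11.26 on day 1, 16.12 and 16.40 on day 7, and 16.13, 16.01, 16.19 and 16.29 in sham samples 1 to 4. It was well above background on all 16 arrays, and the sham mean was 30.0-fold the day 1 mean. PLTP, which moves phospholipids between plasma lipoproteins, had log2 signals of 6.48 and 6.44 on day 1, 9.76 and 9.77 on day 7, and 9.96, 9.85, 10.13 and 10.19 in sham samples 1 to 4. The day 7 samples of PLTP were 0.27 below the sham mean, just under the lowest sham sample.

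IGF1, a growth factor for smooth muscle cells, had log2 signals of 6.68 and 6.69 on day 1, 10.51 and 10.58 on day 7, and 10.23, 10.13, 11.64 and 11.72 in sham samples 1 to 4. Sham samples 3 and 4 were above samples 1 and 2 by more than 1 log2 unit, and the day 7 samples lay between these pairs. F3, tissue factor, the cell surface protein that starts coagulation, had log2 signals of 12.12 and 12.10 on day 1, 13.85 and 14.06 on day 7, and 15.02, 14.97, 13.94 and 14.23 in sham samples 1 to 4. Its day 1 level was 5.39-fold below the sham mean, and the day 7 samples were close to sham samples 3 and 4 and below sham samples 1 and 2. APP, the amyloid precursor protein, and ENPP1, an ectoenzyme that makes pyrophosphate, had smaller day 1 minus sham differences of -2.01 and -1.59. The second day 7 sample of APP rests on 1 array, since its spot was called outlying on the other arrays.

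Among partners of these proteins, 6 of 13 other lipid and lipoprotein genes were called lower on day 1 and 1 higher, and 5 of those 6 were also called lower on day 7. APOD, an apolipoprotein, had log2 fold changes of -7.22 on day 1 and -6.24 on day 7. LCAT, which esterifies cholesterol in plasma lipoproteins, had log2 fold changes of -3.72 on day 1, where 3 of 6 arrays put it well above background, and -1.32 on day 7. PLA2R1, a phospholipase receptor, was lower on day 1 (-4.05) and higher on day 7 (1.18). Of 17 other coagulation, fibrinolysis and complement genes, 4 were called lower and 4 higher on day 1. The plasminogen activator PLAT was lower (-1.31, adjusted p = 4e-05) and near sham on day 7 (0.17, adjusted p = 0.24). Of 7 other growth factor and receptor tyrosine kinase genes, 4 were called lower on day 1 and 1 higher. GHR, the growth hormone receptor, was lower on day 1 (-3.98) and on day 7 (-3.08).

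The 9 receptors, kinases and phosphatases held 6 of the 8 genes that were not well above background on any day 1 array. PPP2R5D, a regulatory B56 subunit of protein phosphatase 2A, had log2 signals of 2.83 and 2.98 on day 1, 7.34 and 7.50 on day 7, and 7.45, 7.51, 7.54 and 7.52 in sham samples 1 to 4. The sham samples were within 0.09 of each other, and in these signals the sham level was at least 14.7-fold the day 1 level. Under other settings the day 1 minus sham difference of PPP2R5D was as small as -1.23 on the log2 scale, which is less than this bound. The other B56 subunit among the 45 genes, PPP2R5B, was well above background throughout and had log2 signals of 6.88 and 6.88 on day 1, 8.49 and 8.61 on day 7, and 8.60, 8.41, 8.54 and 8.58 in sham samples 1 to 4. CDK14, a cyclin-dependent kinase of Wnt signalling, had a day 1 minus sham difference of -2.33 and a day 7 minus sham difference of -0.65.

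For the remaining 5 dim genes of this role, only bounds can be given on day 1. The sham level was at least 2.74-fold the day 1 level for AKAP9, an anchor of protein kinase A, at least 2.33-fold for the lipid kinase PI4KB, at least 2.15-fold for PRKCE (protein kinase C epsilon), at least 2.12-fold for the dopamine receptor DRD1 and at least 1.25-fold for TGFBR2, the type II receptor of TGF-beta. TGFBR2 had sham log2 signals of 3.60 to 4.20. With normexp background correction the day 1 minus sham differences of these 5 genes were smaller than the bounds, from -0.38 (AKAP9) to -0.14 (TGFBR2). Of 7 other genes of TGF-beta, BMP and Wnt signalling, 4 were called lower on day 1 and 1 higher. Of the 4 lower genes, DKK1, a Wnt inhibitor, was near sham on day 7 (log2 fold change -1.25 on day 1 and 0.00 on day 7). The ligands BMP2, BMP4 and TGFB2 were lower on both days. Of 32 other kinase and phosphatase genes, 9 were called lower and 4 higher on day 1. ROCK1, a kinase of actomyosin contraction, had log2 fold changes of -3.06 on day 1 and -1.02 on day 7, and the phosphatase 2A subunits PPP2R2B (-4.16) and PPP2R5C (1.15) moved in opposite directions on day 1. Of 18 other nuclear receptors and transcription factors, 3 were called lower and 4 higher on day 1.

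The muscle and cytoskeleton genes were the tropomyosin TPM1, the sarcoglycan SGCB, the troponin TNNC1 and SLMAP, a protein of the muscle cell membrane. TPM1, which lies along actin filaments and regulates contraction, had log2 signals of 12.11 and 12.11 on day 1 and of 16.86, 16.80, 15.10 and 15.14 in sham samples 1 to 4. Its day 7 level of 15.39 comes from the first day 7 sample alone, since the spots of the other sample were called outlying on all its arrays. The day 1 level was 14.6-fold below the sham mean, and the day 7 value lay between the sham pairs. SGCB, a part of the dystrophin complex of muscle membranes, had log2 signals of 4.39 and 4.21 on day 1, 8.06 and 8.06 on day 7, and 7.80, 8.002, 7.00 and 6.87 in sham samples 1 to 4. Here the day 7 samples were above all sham samples.

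SLMAP had log2 signals of 15.04 and 14.91 on day 1, 16.97 and 17.17 on day 7, and 18.20, 17.74, 17.46 and 17.41 in sham samples 1 to 4. Its day 1 level was 6.63-fold below the sham mean, and both day 7 samples stayed below all sham samples. TNNC1, the troponin C of slow and cardiac muscle, had log2 signals of 6.50 and 6.23 on day 1, 7.50 and 8.85 on day 7, and 7.63, 7.52, 9.61 and 9.47 in sham samples 1 to 4. The day 7 samples differed by 1.35, the widest day 7 difference among the 45 genes, and the sham samples split into 2 levels. Of 11 other actin, myosin and membrane skeleton genes, 5 were called lower on day 1 and 2 higher. The sarcoglycan SGCA, unlike SGCB, was called lower on both days (log2 fold changes of -2.41 on day 1 and -4.09 on day 7). TPM2, another tropomyosin gene, was lower on day 1 (-2.65) and on day 7 (-1.02), and FLNA, which crosslinks actin, was higher on day 1 (3.21).

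Genes of DNA, RNA and translation numbered 5, with a median day 1 minus sham difference of -1.73. PRDM4, a zinc finger protein, had log2 signals of 4.14 and 4.66 on day 1, 7.83 and 8.11 on day 7, and 8.53, 8.21, 8.14 and 8.38 in sham samples 1 to 4. It was 15.1-fold lower on day 1, against 3.21-fold for YBX1 and 3.32-fold for POLR3K, the other genes of this role above background on all arrays. YBX1, a DNA- and RNA-binding protein, had log2 signals of 14.54 and 14.67 on day 1, 16.01 and 15.95 on day 7, and 16.15, 16.24, 16.31 and 16.44 in sham samples 1 to 4, and POLR3K, a subunit of RNA polymerase III, had log2 signals of 6.07 and 6.05 on day 1, 7.21 and 7.18 on day 7, and 7.47, 7.72, 8.10 and 7.86 in sham samples 1 to 4. In both, all day 7 samples were below all sham samples. The mitochondrial translation factor MTRFR and the helicase MCM9 were not well above background on some day 1 arrays, with day 1 minus sham differences of -2.79 and -1.52. Of 15 other translation genes, 4 were called lower on day 1 and none of these on day 7, and 3 were called higher on day 1.

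Protein turnover, traffic and cilia held 8 genes. PSMD4, a ubiquitin receptor of the proteasome, had log2 signals of 6.36 and 6.31 on day 1, 9.07 and 9.09 on day 7, and 9.60, 9.44, 9.70 and 9.53 in sham samples 1 to 4. Its day 1 level was 9.42-fold below the sham mean, and its day 7 samples were below the lowest sham sample. TRIM4, a tripartite motif protein, had log2 signals of 6.40 and 6.49 on day 1, 9.18 and 9.07 on day 7, and 9.11, 9.34, 9.30 and 9.28 in sham samples 1 to 4, so that the day 7 and sham samples overlapped. Of the Golgi proteins, GCC1 had a day 1 minus sham difference of -2.10 and day 7 samples below all sham samples, whereas YIPF1 had a difference of -1.64 and day 7 samples above all sham samples. LYSMD1 (-2.91), the calcium-dependent membrane binder CPNE1 (-1.76), the ubiquitin ligase subunit FBXO7 (-1.73) and the ciliary protein IQCB1 (-1.72) completed the role. Of 9 other ubiquitin and proteolysis genes, 1 was called lower on day 1 (MME, a membrane peptidase) and 3 higher.

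The 6 metabolic enzymes had a median day 1 minus sham difference of -1.92. ST3GAL4, a sialyltransferase, had log2 signals of 12.50 and 12.58 on day 1, 14.22 and 14.50 on day 7, and 14.71, 14.71, 14.77 and 14.84 in sham samples 1 to 4. The sham samples were within 0.12 of each other and both day 7 samples were below them. PSAT1, an enzyme of serine synthesis, had log2 signals of 12.33 and 12.25 on day 1, 15.03 and 15.35 on day 7, and 13.09, 12.93, 16.60 and 16.57 in sham samples 1 to 4. Sham samples 1 and 2 were close to day 1, whereas samples 3 and 4 exceeded day 7. MGST3, a glutathione transferase and peroxidase of the microsomes, had log2 signals of 13.29 and 13.22 on day 1, 14.47 and 14.67 on day 7, and 14.65, 14.37, 15.27 and 15.50 in sham samples 1 to 4, with both day 7 samples inside the sham range. NFS1, the cysteine desulfurase of iron-sulfur clusters, ADH5, which oxidizes S-hydroxymethylglutathione, and the RNA demethylase FTO had day 1 minus sham differences of -1.54, -1.60 and -2.14.

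**Figure D2:**
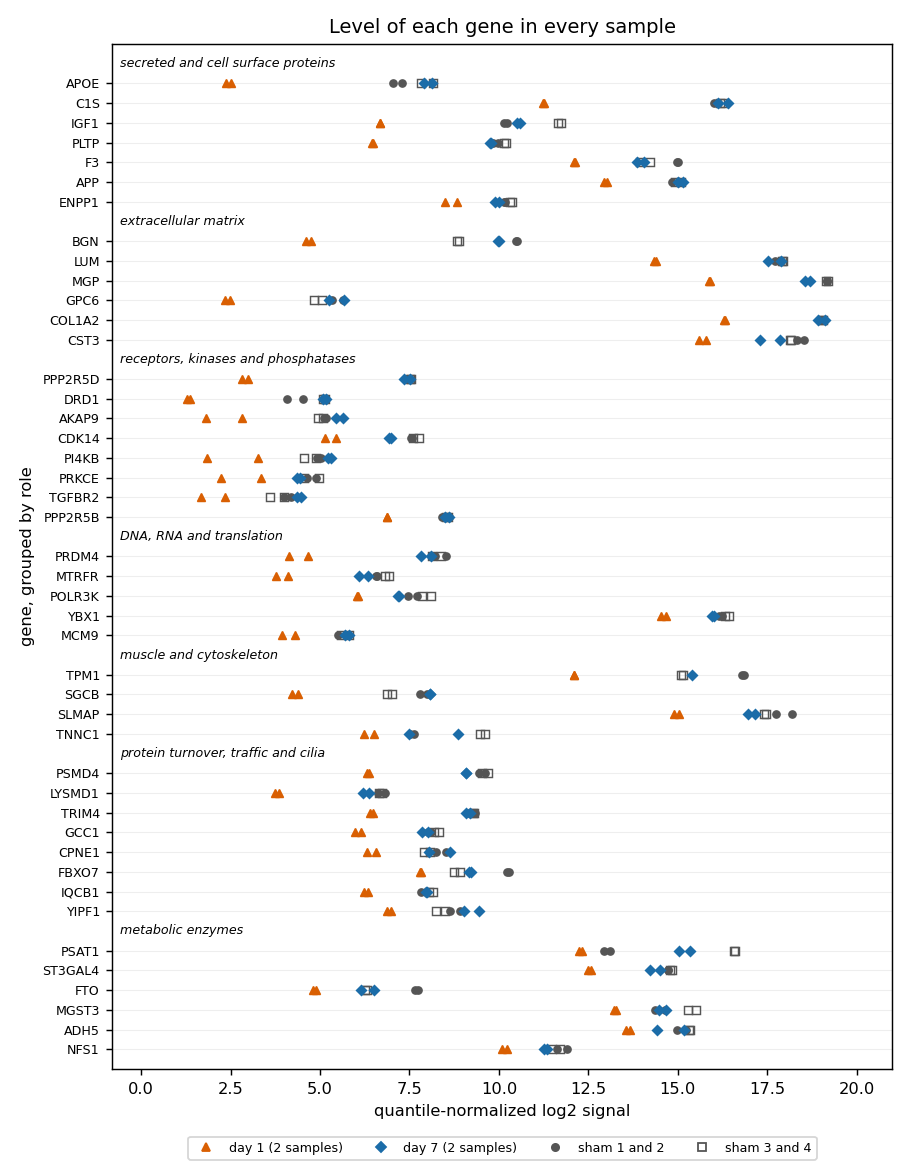
Quantile-normalized log2 signal (x axis) of 44 of the 45 genes (y axis, by role) in 2 day 1 samples, 2 day 7 samples and 4 sham samples. Both day 1 samples lie left of all sham samples in each gene shown, and the open squares and grey circles stand apart where the sham pairs differ, as in PSAT1 and TNNC1.

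The sham samples were not alike. Samples 1 and 2 resembled each other, as did samples 3 and 4 (SD of the log2 difference over probes between 0.19 and 0.72 for the sham pairs, the highest between these sets). This contrast within a group was not used by the rule. In 12 of the 45 genes (26.7%) the means of the sham sets differed by more than 0.75, against 15.9% of 18141 genes tested and 22.3% of 1089 genes with a symbol. Sham samples 1 and 2 were higher in 6 of the 12 genes (TPM1 by 1.71, BGN by 1.64, FBXO7, FTO, SGCB and F3), and samples 3 and 4 in the other 6 (PSAT1 by 3.57, TNNC1, IGF1, MGST3, APOE and DRD1). In the other 33 genes the sets were within 0.75, and in MGP they differed by 0.01. For the 12 genes a day 7 level near the sham mean can lie near neither set, as for PSAT1. Without sham samples 1 and 2 the rule held for 38 genes, 33 of them among the 45, and without sham samples 3 and 4 it held for 44 genes, 32 of them among the 45.

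**Figure D3:**
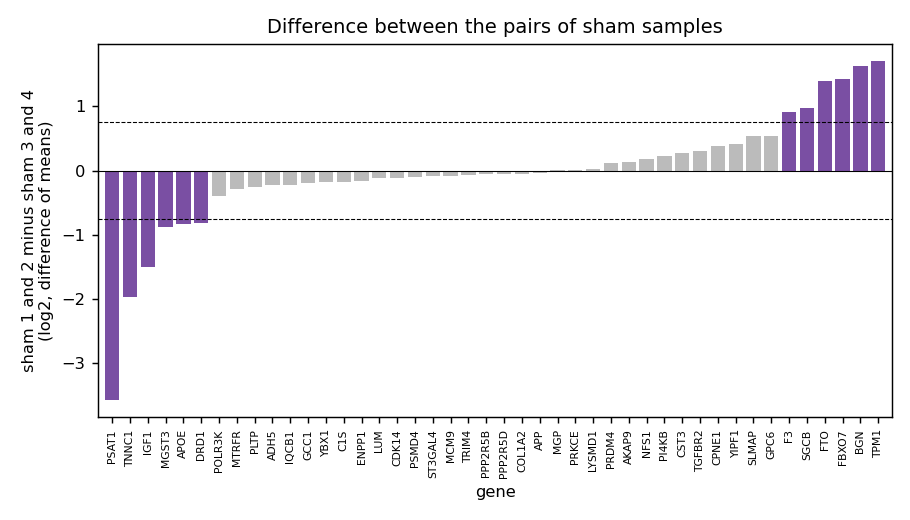
Mean log2 signal of sham samples 1 and 2 minus that of sham samples 3 and 4 (y axis) for 44 of the 45 genes (x axis), with dashed lines at 0.75 and -0.75. The 12 purple bars exceed these lines and run from PSAT1, at -3.57, to TPM1, at 1.71.

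The rule used 1 probe per gene, and 20 of the 45 genes had other probes on the array (67 in all), while 25 had none. Of the 67 other probes, 66 were lower on day 1 by at least 1 log2 unit, and the exception was an ST3GAL4 probe with a day 1 minus sham difference of 0.37. On day 1, 6 of the 67 were not well above background on any array and 4 on some arrays, which leaves their differences uncertain in size. These probes share the arrays with the probe of the rule and give no further replicates. Both thresholds were met by 50 of the 67, and all other probes of 11 genes met both. COL1A2 had 10 other probes with day 1 minus sham differences of -5.48 to -2.73, so that the probe of the rule, at -2.72, was the one that differed least. The highest of these probes was 0.95 above sham on day 7.

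A further 13 probes were low on day 1 and also more than 0.75 below sham on day 7, and these were concentrated in MGP. In MGP, 7 of 8 other probes had a day 7 minus sham difference below -0.75 (the lowest was -1.18), and in SLMAP all 3 did (-1.60 to -1.20). For MGP and SLMAP most other probes therefore did not place day 7 near sham. CDK14 had 1 such probe (-0.98), and LUM and MTRFR had 1 each. In contrast, all 5 other probes of PSAT1, 4 of IGF1, 6 of TPM1 and 4 of APP met both thresholds. The other probe of BGN also met both thresholds, but was well above background on 1 of 6 day 1 arrays.

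**Figure D4:**
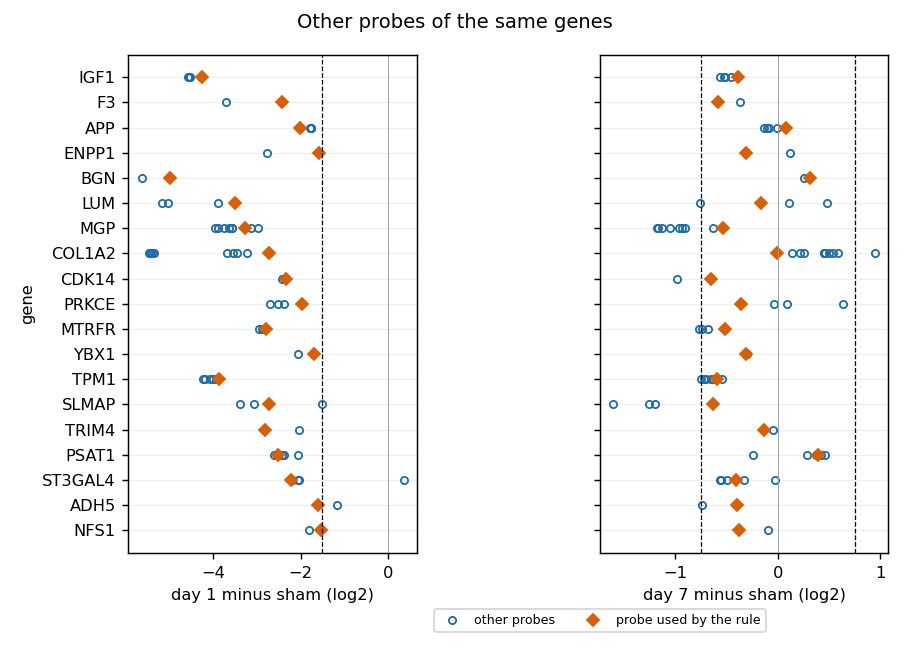
Day 1 minus sham (left) and day 7 minus sham (right) log2 differences for 19 of the 20 genes (y axis) with more than 1 probe, with the probe of the rule (orange diamonds), other probes (open circles) and the thresholds (dashed). Other probes of MGP and SLMAP lie left of -0.75 on day 7, and an ST3GAL4 probe stands at 0.37 on day 1.

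Marker genes of cell types were examined beside the 45 genes. The fibroblast list had 4 genes with a symbol, of which BGN, COL1A2 and LUM belong to the 45, so that the rule fixed their course, and DCN does not. Its signals summed to 139216 to 139442 intensity units on day 1, 810659 to 833733 on day 7 and 1010280 to 1063850 in the sham samples. DCN itself was lower on both days (log2 fold changes of -2.87 and -1.89). The smooth muscle list without TPM1, which belongs to the 45 and has no value in 1 day 7 sample, held 5 genes and summed to 181153 to 182590 on day 1, 267647 to 299867 on day 7 and 499241 to 782376 in the sham samples. Of these 5 genes, 3 were called lower on day 1 (ACTA2, MYH11 and TPM2) and 4 on day 7, and only ACTA2, which met the thresholds and was left out by name, was lower on day 1 and not called on day 7. MYH11, the smooth muscle myosin heavy chain, had a log2 signal of 11.34 on day 1 and 10.18 on day 7, against 16.67 in the sham group. CALD1, an actin-binding regulator of contraction, had log2 fold changes of -0.28 on day 1 and -1.62 on day 7. The rise of the smooth muscle sum from day 1 to day 7 rested on ACTA2. Its log2 signals were 13.09 and 13.02 on day 1 and 17.59 and 17.83 on day 7. The dimmer TPM2 was also higher on day 7 than on day 1, whereas MYH11 and CALD1 were lower.

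Markers of inflammatory cells were higher on day 1. The neutrophil list (CXCR1, CXCR2 and S100A9) was called higher in 3 of 3 genes on day 1, with a summed signal of 286217 to 289505 on day 1, 36925 to 42484 on day 7 and 4562 to 10975 in the sham samples. These sums rested on S100A9, and on day 7 only 1 of the 3 genes was called higher. Of the macrophage list, 4 of 5 genes were called higher on both days, and the exception was APOE, a gene of the 45. The 5 genes summed to 324065 to 326022 on day 1 and to 954302 to 993629 on day 7, against 60412 to 77110 in the sham samples, where the sum rested on CTSK. The rise between the days rested on MMP12 (log2 signals of 12.06 and 11.95 on day 1, 18.95 and 18.84 on day 7) and CTSK (17.49 and 17.45, then 18.54 and 18.49). CD14 was lower on day 7 (15.51 and 15.90) than on day 1 (16.59 and 16.60). The endothelial list (4 genes) had 1 gene called higher and 1 lower on day 1. The part of these cell types in the levels of the 45 genes was not tested.

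Markers of tissues around or outside a vein were also measured. Striated muscle markers (11 genes, TNNC1 among the 45) summed to 131133 to 141762 in sham samples 1 and 2 and 64021 to 67588 in samples 3 and 4, against 16483 to 17179 on day 1 and 2791 to 4006 on day 7. Without CASQ2, a calcium-binding protein of the sarcoplasmic reticulum, the order was different, and the other 10 genes summed to 9014 to 9198 on day 1, 1196 to 1539 on day 7 and 1049 to 1999 in the sham samples. Of the 11 genes, 7 were called higher on day 1 and 3 lower (median log2 fold change 2.42), with log2 fold changes of 7.26 for the calcium pump ATP2A1, 5.28 for the myosin light chain MYL1 and -3.59 for CASQ2. TNNC1 thus differed in direction from most genes of this list on day 1. Adipocyte markers (5 genes) summed to 127514 to 131037 in sham samples 3 and 4 and 2857 to 2900 in samples 1 and 2, against 2874 to 2921 on day 1 and 1521 to 1597 on day 7. The sum of sham samples 3 and 4 rested on LPL, with log2 signals of 16.92 and 16.88 there and 10.03 and 10.13 in samples 1 and 2. On day 1 the sum was close to that of sham samples 1 and 2, although ADIPOQ had dim signals of 2.40 and 2.27 against 8.66 and 8.60. The genes of this list did not share a direction, as 2 of the 5 were called lower and 1 higher on day 1 against sham. Sham samples 3 and 4, which had the higher adipocyte sum, were those in which PSAT1, IGF1, MGST3, APOE, DRD1 and TNNC1 were higher, and whether these are linked was not tested. The lung surfactant genes SFTPA1 (log2 signals of 18.95 on day 1, 18.68 on day 7 and 18.83 for sham) and SFTPB were bright in every group, although the tissue is labelled as vein.

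**Figure D5:**
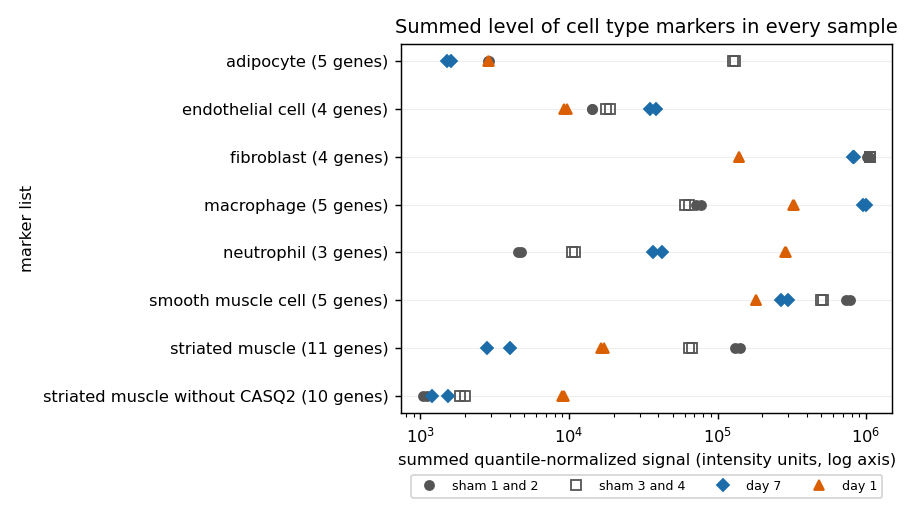
Summed quantile-normalized signal (x axis, log scale, intensity units) of 7 marker lists (y axis) in each sample, over genes with a value in every sample, and of the striated muscle list without CASQ2. The fibroblast and smooth muscle sums are lowest on day 1, the neutrophil sum and the striated muscle sum without CASQ2 are highest on day 1, and sham samples 3 and 4 stand apart from 1 and 2 in the adipocyte list. The rise of the smooth muscle sum from day 1 to day 7 rests on ACTA2, which met the thresholds of the rule. The adipocyte sum of sham samples 3 and 4 rests on LPL, the neutrophil sums rest on S100A9, and the macrophage rise from day 1 to day 7 rests on MMP12 and CTSK.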

How the data were processed

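The authors scanned the 16 arrays with Agilent Feature Extraction (11.0.1.1 per the file headers, 9.1 per the processing notes) and deposited a background-subtracted signal intensity for each of 45220 spots. They also deposited log2 values of 33670 probes, quantile-normalized in GeneSpring GX v11.5 and filtered for low intensity. Their column medians were 8.49 to 8.51 and they correlated with the log2 scanner signals at 0.9998 or more, so that they are on the log2 scale and not centred per gene. The build in the file headers is oryCun2. Probes were named by accession through RefSeq (assembly mOryCun1.1, used for names only), which named 2761 of the 33670 probes (1090 genes). The other probes are unnamed here.

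Control spots were removed (43603 probes left), spots called non-uniform or outlying were set to missing (1.46% on at least 1 array), and log2 signals were quantile-normalized. A gene kept its brightest probe and was tested when all arrays of a group, or of more groups, put that probe well above background. A limma model (limma 3.58.1 and R 4.3.3, with the package data.table, version 1.17.8) held all 3 groups, with two-sided p-values adjusted by Benjamini-Hochberg over all genes. Genes were called at an adjusted p below 0.05 and a log2 fold change of at least 1 in size. Arrays were joined when both the SD and the median absolute deviation of their log2 difference were below those expected from repeated spots. The SD was 0.0742 to 0.0892 within and 0.185 to 0.195 between the day 1 sets. It was 0.0536 to 0.0631 within and 0.195 to 0.198 between the day 7 sets. Between sets the SD was above the 0.123 to 0.144 that repeated spots gave on day 1. On day 7 it was within their 0.172 to 0.199 or just above it. For day 7 arrays 1 and 2, from different sets, the ratio of observed to expected variance was 0.97 by the SD and 1.18 by the median absolute deviation. By the SD alone, all day 7 arrays would have been joined into 1 sample, so that the n of 2 on day 7 may still be high.

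The 45 genes, the roles, the marker lists and the gene lists were chosen with earlier results of these data known. By the rule for names, values in every sample are given for the 12 genes with the largest day 1 difference among those bright on all arrays and for up to 4 genes of each role, bounds for genes dim on day 1, and partner genes only from the lists. Genes singled out for their other probes, their sham difference or their place in the sham range were named after their values were seen. On simulated data of 17936 genes with 200 changed by 2 log2 units, the model recovered 171 for day 1 against sham (0 unchanged genes called), 161 for day 7 against sham (5 called) and 159 between the days (4 called). The simulated noise was independent between samples, whereas the real sham samples fell into pairs. These counts therefore do not give the error rate of the model on the real data. Alternatives were 16 separate arrays with and without a replicate or scan block, the authors' values, 75th percentile scaling, normexp with an offset of 50, other filters, the mean of the probes, sham averaged in pairs, and each sample left out. Leaving out a sham pair, and CASQ2 from the striated muscle sum, was added after seeing the data. Promoter and protein sequences were not analysed here, and values of 1 of the 45 genes and of some list genes are not reported here. Figures were drawn with Python 3.11.15, matplotlib 3.10.9 and pandas 2.3.3.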

Additional observations from a re-analysis of the deposited data

How the results depend on the processing

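Normexp background correction changed the counts of called genes and the size of the rule's gene set most. It called 5396 genes on day 1 against sham, 3291 on day 7 against sham and 3839 between the days, against 9091, 5481 and 7476, and the rule held for 21 genes, 20 of them among the 45. With 75th percentile scaling the rule held for 31 genes (26 shared), with the mean of the probes for 48 (41 shared), with the scanner signals for 47 (45 shared), and with probes bright on all arrays for 34. Without single samples it held for 42 to 47 genes. None of the 45 was called on day 7 against sham by limma. In that model 14 had an unadjusted and 13 an adjusted p below 0.05, and the fold threshold kept these uncalled. The share of all genes at these cutoffs was not computed and the rule used this contrast, so that nothing is read from the member counts. With 75th percentile scaling 2 were called (C1S and YBX1, both higher), among 5983 genes called in all. With the mean of the probes 1 was called (SLMAP, lower), among 5451. Without sham samples 1 and 2, 5 were called (PSAT1, IGF1 and TNNC1 lower, BGN and SGCB higher), among 5914. Without sham samples 3 and 4, 5 were called (TPM1, F3, FBXO7 and FTO lower, PSAT1 higher), among 5968. PSAT1 thus changed direction with the sham pair left out.

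Between 32 and 45 of the 45 genes were called lower on day 1 under every alternative. Over all genes, between 2375 (normexp) and 4032 (without sham samples 1 and 2) were called lower, against 3827 in the main fit. Since the rule chose the 45 genes by this difference, nothing is read from their counts. Of the fits of single genes on day 1, 820 stayed on the same side of the threshold, 19 lost the call and 5 gained it, and none changed direction. The size of a difference also depended on the setting. For BGN it ran from -5.82 to -2.87 and for PRDM4 from -4.17 to -1.91, so that the folds above hold for the quantile-normalized signals. FBXO7 and TNNC1 lost the call when either day 1 sample was left out, as did TNNC1, MCM9 and YBX1 with 75th percentile scaling, and the other losses came with normexp. PSAT1 gained it without sham sample 1 or 2 and with separate arrays. The replicate numbers did not pair the samples (correlations of -0.025 to 0.040). The replicate block on 16 separate arrays called 9308 genes on day 1, 5760 on day 7 and 7886 between the days, against 9321, 5771 and 7893 without it. With this block 45 of the 45 were called lower on day 1, where 3890 of all genes were called lower. The scan block, possible only between the days, called 7915 genes. The dim probes on day 1 limit the size of 8 of the differences to a bound.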

Other observations

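The 6 genes left out by name had the same course in the authors' normalized log2 values. Of these, 1 was not well above background on any day 1 array, so that its day 1 minus sham difference is only a bound. That gene is not named here, and it was not ACTA2, which had log2 signals of 13.09 and 13.02 on day 1. Each of the other day 1 differences below may therefore be only a bound. ACTA2, the smooth muscle actin, had a day 1 minus sham difference of -5.12 and a day 7 minus sham difference of -0.48. For MMP2, a gelatinase, the differences were -4.61 and -0.30. The carriers SLC6A8 (-2.55 and -0.30), SLC4A3 (-2.28 and 0.29) and SLC25A4 (-1.78 and -0.01) and the coagulation inhibitor TFPI (-1.51 and 0.53) were closer to the day 1 threshold. A mirror pattern, a day 1 mean raised by the same thresholds and a day 7 mean within 0.75 of sham, was found for 63 genes with a symbol.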
